A study of Mus musculus with 48 samples.

Results

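Ccnf, Tedc2 and Tbc1d24 lie close together on mouse chromosome 17, and these genes were described here with Amdhd2, Atp6v0c and Pdpk1, which continue the same row of genes. The members were chosen by gene symbol, after the KO minus WT differences of Ccnf, Tedc2 and Tbc1d24 in these same arrays had been seen. Those differences, and the calls made on them below, are therefore given only as a description. Of 6 members, 5 had oligonucleotide probe sets under their symbol, 9 in all among the 45037 that were tested, and Atp6v0c had none. A probe set is a group of short oligonucleotides that reads one transcript. Tedc2 was read by 1428832_PM_at and Amdhd2 by 1434855_PM_at. Where a gene had several, they are lettered from the highest mean level down: Ccnf a (1422513_PM_at) and b (1443807_PM_x_at), Tbc1d24 a (1448028_PM_at), b (1442325_PM_at) and c (1438424_PM_at), and Pdpk1 a (1415729_PM_at) and b (1416501_PM_at). All 9 were kept, although Ccnf b and Tbc1d24 c were dim, with a mean below the median probe set of the array (log2 4.38).

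The arrays came from spinal cord, cerebellum, midbrain and liver of mice with or without functional Tia1, at ages of 3 and 6 months as labelled. Each of the 16 groups held 3 mice, so that 48 arrays covered 12 mice with 4 tissues each. The KO mice were homozygous for a homologous recombination at exon 4 of Tia1, which encodes an RNA-binding protein of stress granules. They retain a shortened Tia1 mRNA and were bred from homozygous pairs on a C57BL6/J background. The WT mice were C57BL6/J, bought from The Jackson Laboratory by the methods and called littermates by the series description, so that colony and genotype cannot be told apart where the colonies differed. The labels number the WT animals 1, 2 and 3 and the KO animals 122970, 122972 and 122973 at either age, and the ages were taken as different animals. Where values are listed below, they follow this order. All values are log2 expression values, 1 unit being a doubling. Levels of different probe sets were compared only to letter them, to pick the brightest of a gene and to label dim ones, and were summed over marker lists.

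Ccnf encodes cyclin F, an F-box protein that does not drive a cyclin-dependent kinase but brings substrates to the SCF ubiquitin ligase in the G2 phase, and mutations of the human gene are known in amyotrophic lateral sclerosis and frontotemporal dementia. Tedc2 encodes a partner of delta- and epsilon-tubulin in the complex that stabilizes the microtubules of centrioles. Tbc1d24 encodes a protein with a TBC and a TLDc domain that binds the small GTPase ARF6 and acts in synaptic vesicle traffic, and recessive mutations of the human gene cause epilepsy. Further along, Atp6v0c encodes the proteolipid that forms the membrane ring of the proton-pumping V-ATPase, Amdhd2 an enzyme that removes the acetyl group of N-acetylglucosamine-6-phosphate, and Pdpk1 the kinase PDK1, which phosphorylates the activation loop of AKT and related AGC kinases.

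The promoter regions of the 3 genes with higher values in the KO mice and of Amdhd2, whose differences lay on both sides of 0, are shown because these neighbours are read from 1 strand. They were taken from RefSeq on build GRCm38.p6, run from 250 bases before to 50 bases after the annotated start, and are written 5′ to 3′ along the minus strand. Capitals mark, on either strand, the core of the cell cycle homology region TTTGAA, the CCAAT box, the E-box CACGTG and the GC box GGGCGG, none of which overlap here. The positions are Ccnf chr17:24251360-24251659, Tedc2 chr17:24220802-24221101, Tbc1d24 chr17:24205513-24205812 and Amdhd2 chr17:24163684-24163983.
Ccnf: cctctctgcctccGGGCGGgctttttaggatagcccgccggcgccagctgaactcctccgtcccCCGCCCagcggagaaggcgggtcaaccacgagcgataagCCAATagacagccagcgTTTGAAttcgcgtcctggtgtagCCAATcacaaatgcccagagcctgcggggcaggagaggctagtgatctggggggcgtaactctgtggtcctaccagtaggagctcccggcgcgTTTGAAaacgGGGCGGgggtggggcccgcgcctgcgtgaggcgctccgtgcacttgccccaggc
Tedc2: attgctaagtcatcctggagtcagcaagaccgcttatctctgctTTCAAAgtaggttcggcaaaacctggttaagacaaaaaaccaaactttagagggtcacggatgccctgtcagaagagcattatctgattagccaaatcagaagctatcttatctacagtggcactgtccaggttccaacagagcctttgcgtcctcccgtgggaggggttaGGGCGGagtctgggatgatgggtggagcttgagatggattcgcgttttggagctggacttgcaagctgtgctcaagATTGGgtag
Tbc1d24: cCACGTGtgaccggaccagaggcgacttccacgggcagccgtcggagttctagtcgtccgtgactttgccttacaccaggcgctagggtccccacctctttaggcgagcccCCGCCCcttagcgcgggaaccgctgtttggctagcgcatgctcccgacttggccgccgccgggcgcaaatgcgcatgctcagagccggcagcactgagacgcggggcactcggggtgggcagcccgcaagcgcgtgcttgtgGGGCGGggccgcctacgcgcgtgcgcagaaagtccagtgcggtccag
Amdhd2: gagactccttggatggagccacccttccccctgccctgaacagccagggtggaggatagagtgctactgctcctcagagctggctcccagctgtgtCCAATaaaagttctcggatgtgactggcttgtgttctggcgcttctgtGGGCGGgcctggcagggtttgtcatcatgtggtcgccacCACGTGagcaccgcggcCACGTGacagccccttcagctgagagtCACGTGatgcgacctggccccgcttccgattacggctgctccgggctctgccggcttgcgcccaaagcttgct
In the Ccnf region, the letters TTTGAA stood at -130 and -14 from the start, with CCAAT at -147 and -107 and 3 GC boxes. The Tedc2 region held 1 TTTGAA and 1 CCAAT, both on the reverse strand, and 1 GC box. The Tbc1d24 region shown held neither TTTGAA nor CCAAT, but 1 E-box and 2 GC boxes. A second annotated start of Tbc1d24, at chr17:24199908-24200207, held none of these motifs and is not shown. Amdhd2 held 3 E-boxes, 1 CCAAT and 1 GC box. Of 32851 promoter regions of the same length, 17.9% held TTTGAA on either strand, 37.4% CCAAT, 7.2% CACGTG and 35.7% GGGCGG. A match describes the letters and not a bound site, and no match says only that the letters are not in these 300 bases.

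The arrays of a group correlated at 0.985 to 0.998. The probe set at exon 4 of Tia1 was lower in the KO mice in 8 of 8 comparisons, with differences of -2.35 to -1.79 in the nervous tissues and of -0.76 and -0.39 in liver, which matches the labels. All 6 spinal cord, 6 cerebellum and 8 liver markers, and 5 of 7 midbrain markers, had their highest level in the tissue so labelled. Skeletal muscle markers varied between the spinal cord samples, with a log2 summed level of 5.64 to 13.00 in WT and 5.88 to 11.02 in KO mice. Of 6 granulocyte markers, 3 were called higher in the KO spinal cords of 3 months, where 0.311% of all probe sets were called. The granulocyte list median there was 1.78. Liver markers had a median difference of 0.36 in the spinal cords of 6 months. Of these 8 markers 1 was called there, against 0.162% of all probe sets, and 3 were at an unadjusted p under 0.05. Their log2 summed level in spinal cord was 5.94 to 6.47 in WT and 6.00 to 7.19 in KO mice over both ages. Cerebellum markers had a median difference of 0.32 in the midbrains of 6 months, with 0 of 6 called by limma and 3 at an unadjusted p under 0.05, and a log2 summed level of 11.22 to 11.34 in WT and 11.20 to 11.43 in KO mice. These stand beside Tedc2 and Ccnf, whose median WT levels were higher in liver and cerebellum than in spinal cord and midbrain. Choroid plexus markers had median differences of 0.91 in midbrain at 3 months and of -0.51 and -0.46 in cerebellum at 3 and 6 months. Of these 6 markers limma called 0 in each (0.242%, 0.548% and 0.182% of all probe sets, 0 unadjusted). Their log2 summed level in midbrain was 6.81 to 7.24 in WT and 7.01 to 9.56 in KO mice over both ages. The part of these marker lists in the spinal cord, cerebellum and midbrain values was not tested. In cerebellum and midbrain all 6 granulocyte markers were dim in both genotypes. Of 4 adipocyte markers, 2 were called higher in the KO livers of 3 months, where 9.44% of all probe sets were called. Their log2 summed level was 7.75 to 8.06 in the WT and 7.48 to 9.59 in the KO livers over both ages. The part of adipocyte and skeletal muscle markers in the liver values was not tested. In whole tissue, more cells of a type and more RNA per cell cannot be told apart.

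Tedc2 was higher in the KO mice in every tissue at both ages, by 0.64 to 1.05 log2 units (SE 0.13), or 1.55 to 2.07 times. At 3 months its values in spinal cord were 5.83, 5.80 and 6.00 in the WT mice and 6.70, 6.86 and 6.87 in the KO mice. In cerebellum at 3 months they were 6.51, 6.61 and 6.78 in the WT mice and 7.74, 7.73 and 7.56 in the KO mice. In midbrain at 3 months they were 5.82, 5.93 and 5.65 in the WT mice and 6.75, 6.83 and 6.85 in the KO mice. Within each nervous tissue the 3 KO mice of 3 months thus lay close together and above all WT mice. At 6 months, the spinal cord values were 5.92, 5.73 and 5.83 in the WT mice and 6.75, 6.40 and 6.23 in the KO mice. The cerebellum values at 6 months were 6.65, 6.55 and 6.59 in the WT mice and 7.66, 7.29 and 7.14 in the KO mice. The midbrain values at 6 months were 5.73, 5.66 and 6.03 in the WT mice and 6.76, 6.31 and 6.29 in the KO mice. Here mouse 122970 was highest of the KO mice in all 3 nervous tissues, while the other KO mice lay closer to the WT mice but still above them. In liver, where the gene had its highest level, the values were 9.91, 9.96 and 9.85 in the WT mice and 10.79, 10.93 and 11.15 in the KO mice at 3 months. In liver at 6 months they were 10.01, 10.04 and 10.43 in the WT mice and 10.94, 10.79 and 10.92 in the KO mice. WT and KO mice did not overlap in any of the 8 comparisons. The share of all probe sets without overlap was not counted, so nothing is read from such counts here or below. Without mouse 122970, the differences at 6 months were 0.49 in spinal cord, 0.49 in midbrain, 0.62 in cerebellum and 0.69 in liver.

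Ccnf was also higher in the KO mice in all 8 comparisons by probe set a, with differences of 0.44 to 0.72 in the nervous tissues and 1.57 and 0.79 in liver (SE 0.15), or 1.35 to 2.96 times. In liver at 3 months its values were 6.44, 6.61 and 6.78 in the WT mice and 8.08, 8.16 and 8.30 in the KO mice. In liver at 6 months they were 7.10, 7.13 and 7.24 in the WT mice and 8.06, 7.86 and 7.91 in the KO mice. The KO livers lay between 7.86 and 8.30 over both ages, whereas the WT livers of 3 months all lay below those of 6 months. In the nervous tissues the group means, 2.85 to 4.22, all lay below the median probe set (log2 4.38), which limits their precision. Spinal cord gave 3.19, 2.97 and 3.38 in the WT mice and 3.62, 4.03 and 3.47 in the KO mice at 3 months. At 6 months spinal cord gave 3.04, 2.84 and 2.79 in the WT mice and 3.73, 3.11 and 3.14 in the KO mice. Every KO mouse lay above every WT mouse in both, by a gap as small as 0.07 at 6 months. Cerebellum gave 3.45, 3.35 and 3.71 in the WT mice and 4.49, 4.10 and 4.07 in the KO mice at 3 months. At 6 months cerebellum gave 3.38, 3.30 and 3.58 in the WT mice and 4.06, 3.68 and 3.98 in the KO mice. These were the highest nervous levels of the gene, and again the genotypes did not overlap. Midbrain gave 3.03, 3.07 and 3.21 in the WT mice and 3.86, 3.91 and 3.44 in the KO mice at 3 months. At 6 months midbrain gave 2.84, 2.92 and 2.80 in the WT mice and 3.50, 3.31 and 3.60 in the KO mice. No comparison of this probe set overlapped, and without mouse 122970 its 6-month differences were 0.73 in liver, 0.60 in midbrain, 0.41 in cerebellum and 0.24 in spinal cord. The dim probe set b differed by -0.16 to 0.24 in the nervous tissues and by 0.43 and 0.71 in liver, so that in nervous tissue the 2 probe sets did not move alike.

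Tbc1d24 was higher in the KO mice in all 8 comparisons by probe set a, by 0.42 to 0.96 (SE 0.14), or 1.34 to 1.95 times. In spinal cord at 3 months its values were 7.70, 7.50 and 7.48 in the WT mice and 8.31, 8.32 and 8.30 in the KO mice. In cerebellum at 3 months they were 7.49, 7.87 and 7.84 in the WT mice and 8.78, 8.68 and 8.65 in the KO mice. In midbrain at 3 months they were 8.24, 8.25 and 8.22 in the WT mice and 8.79, 8.80 and 8.80 in the KO mice. As for Tedc2, the KO mice of 3 months were close to each other within each nervous tissue and above the WT mice. At 6 months the spinal cord values were 7.66, 7.64 and 7.45 in the WT mice and 8.36, 7.97 and 7.93 in the KO mice. The cerebellum values at 6 months were 7.84, 7.85 and 7.82 in the WT mice and 8.74, 8.32 and 8.30 in the KO mice. The midbrain values at 6 months were 8.15, 7.89 and 8.12 in the WT mice and 8.94, 8.35 and 8.35 in the KO mice. Mouse 122970 was again the highest KO mouse in each nervous tissue, and the other KO mice were nearly equal. In liver the values were 7.67, 7.31 and 7.33 in the WT mice and 8.09, 7.93 and 8.0 in the KO mice at 3 months. In liver at 6 months they were 7.22, 7.32 and 7.35 in the WT mice and 7.98, 7.85 and 7.33 in the KO mice. Mouse 122973 fell inside the WT range there, which made liver at 6 months the only comparison of this probe set with an overlap. The difference in that comparison was 0.29 without mouse 122970 and 0.62 without mouse 122973. The other probe sets of Tbc1d24 differed in the same direction in the nervous tissues, by 0.55 to 0.98 for b and 0.19 to 0.83 for the dim c. In liver, b differed by 0.72 and 0.23 and c by -0.12 and 0.63 at 3 and 6 months, so that the probe sets disagreed on the direction in liver at 3 months.

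**Figure D1:**
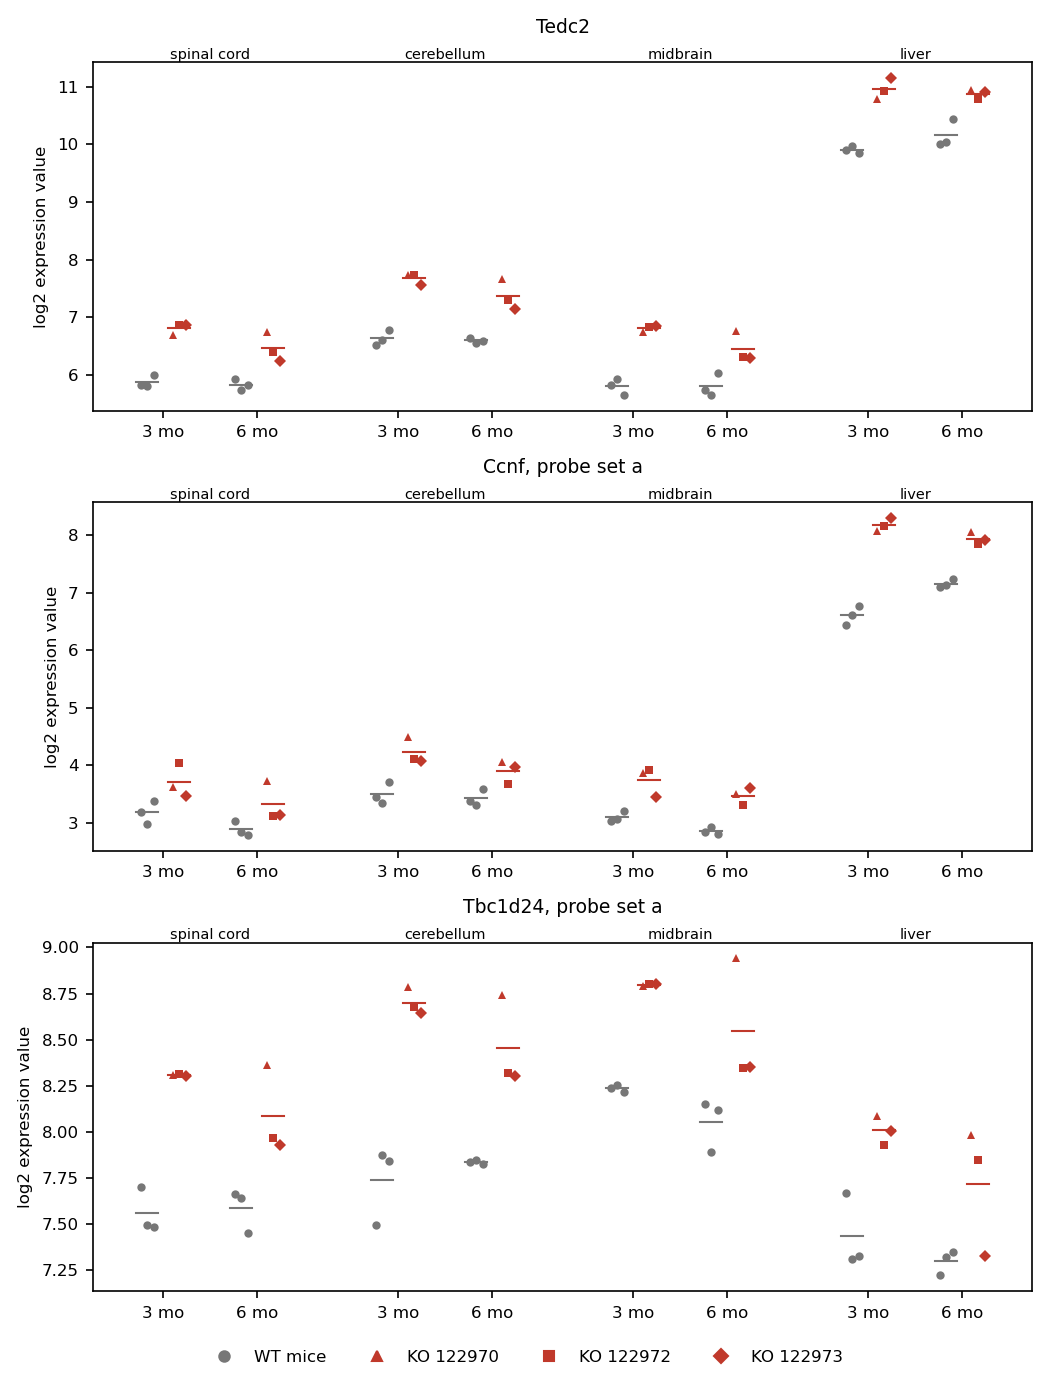
Log2 expression of Tedc2, Ccnf (probe set a) and Tbc1d24 (probe set a) in each array, by tissue and age; each point is 1 mouse and the bar is the group mean of 3 mice. KO points lie above all WT points of the same tissue and age for Ccnf and Tedc2 in 8 of 8 comparisons and for Tbc1d24 in 7 of 8. These genes were chosen by their differences, the share of all probe sets without overlap was not counted, and nothing is read from these counts.

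Pdpk1, at the other end of the row, differed little in the nervous tissues, by -0.10 to 0.05 for probe set a (SE 0.058) and -0.01 to 0.12 for b (SE 0.065). By probe set a, spinal cord gave 9.31, 9.33 and 9.39 in the WT mice and 9.26, 9.28 and 9.21 in the KO mice at 3 months. At 6 months spinal cord gave 9.24, 9.29 and 9.17 in the WT mice and 9.21, 9.27 and 9.33 in the KO mice. The KO mice thus lay below the WT mice at 3 months and among them at 6 months. Cerebellum gave 9.36, 9.43 and 9.46 in the WT mice and 9.30, 9.28 and 9.39 in the KO mice at 3 months. At 6 months cerebellum gave 9.24, 9.25 and 9.24 in the WT mice and 9.32, 9.26 and 9.28 in the KO mice. Here the genotypes overlapped at 3 months, and the KO mice lay above the WT mice at 6 months. Midbrain gave 9.38, 9.38 and 9.36 in the WT mice and 9.40, 9.36 and 9.32 in the KO mice at 3 months. At 6 months midbrain gave 9.28, 9.34 and 9.23 in the WT mice and 9.30, 9.35 and 9.35 in the KO mice, and the genotypes overlapped at both ages. In liver Pdpk1 was higher in the KO mice. By probe set a the liver values were 8.30, 8.43 and 8.35 in the WT mice and 8.47, 8.50 and 8.54 in the KO mice at 3 months. At 6 months that probe set gave 8.27, 8.24 and 8.18 in the WT mice and 8.51, 8.71 and 8.61 in the KO mice in liver. The KO livers lay above the WT livers at both ages, by gaps of 0.04 and 0.24 and with a difference of 0.14 at 3 and 0.38 at 6 months. By probe set b the liver values were 8.42, 8.29 and 8.22 in the WT mice and 8.58, 8.68 and 8.48 in the KO mice at 3 months. At 6 months they were 8.10, 8.19 and 8.19 in the WT mice and 8.53, 8.51 and 8.43 in the KO mice. These differences were 0.27 and 0.33, again without overlap. In the nervous tissues the genotypes overlapped in 9 of the 12 comparisons of both probe sets, and gaps elsewhere were at most 0.03.

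Amdhd2, which lies between Pdpk1 and Tbc1d24, had KO minus WT differences of -0.30 to 0.16 (SE 0.10) with 5 of 8 above 0. In cerebellum at 6 months its values were 6.69, 6.43 and 6.15 in the WT mice and 5.93, 6.16 and 6.28 in the KO mice. In liver at 6 months they were 8.12, 7.94 and 8.13 in the WT mice and 7.59, 7.86 and 7.84 in the KO mice. In spinal cord at 3 months they were 6.33, 6.15 and 6.25 in the WT mice and 6.47, 6.37 and 6.38 in the KO mice. The KO mice were thus all below the WT mice in the older liver and all above them in the younger spinal cord, and the genotypes overlapped in the other 6 comparisons. Spinal cord at 6 months gave 6.28, 6.16 and 6.35 in the WT mice and 6.52, 6.27 and 6.37 in the KO mice. Cerebellum at 3 months gave 6.03, 6.14 and 6.25 in the WT mice and 6.27, 6.35 and 6.23 in the KO mice. In both, only part of the KO mice exceeded the highest WT mouse. Midbrain gave 6.42, 6.42 and 6.27 in the WT mice and 6.25, 6.43 and 6.43 in the KO mice at 3 months. At 6 months midbrain gave 6.51, 6.27 and 6.33 in the WT mice and 6.43, 6.44 and 6.31 in the KO mice. Liver at 3 months gave 7.92, 7.97 and 7.93 in the WT mice and 8.03, 7.96 and 7.85 in the KO mice, and in these the genotypes overlapped as well.

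**Figure D2:**
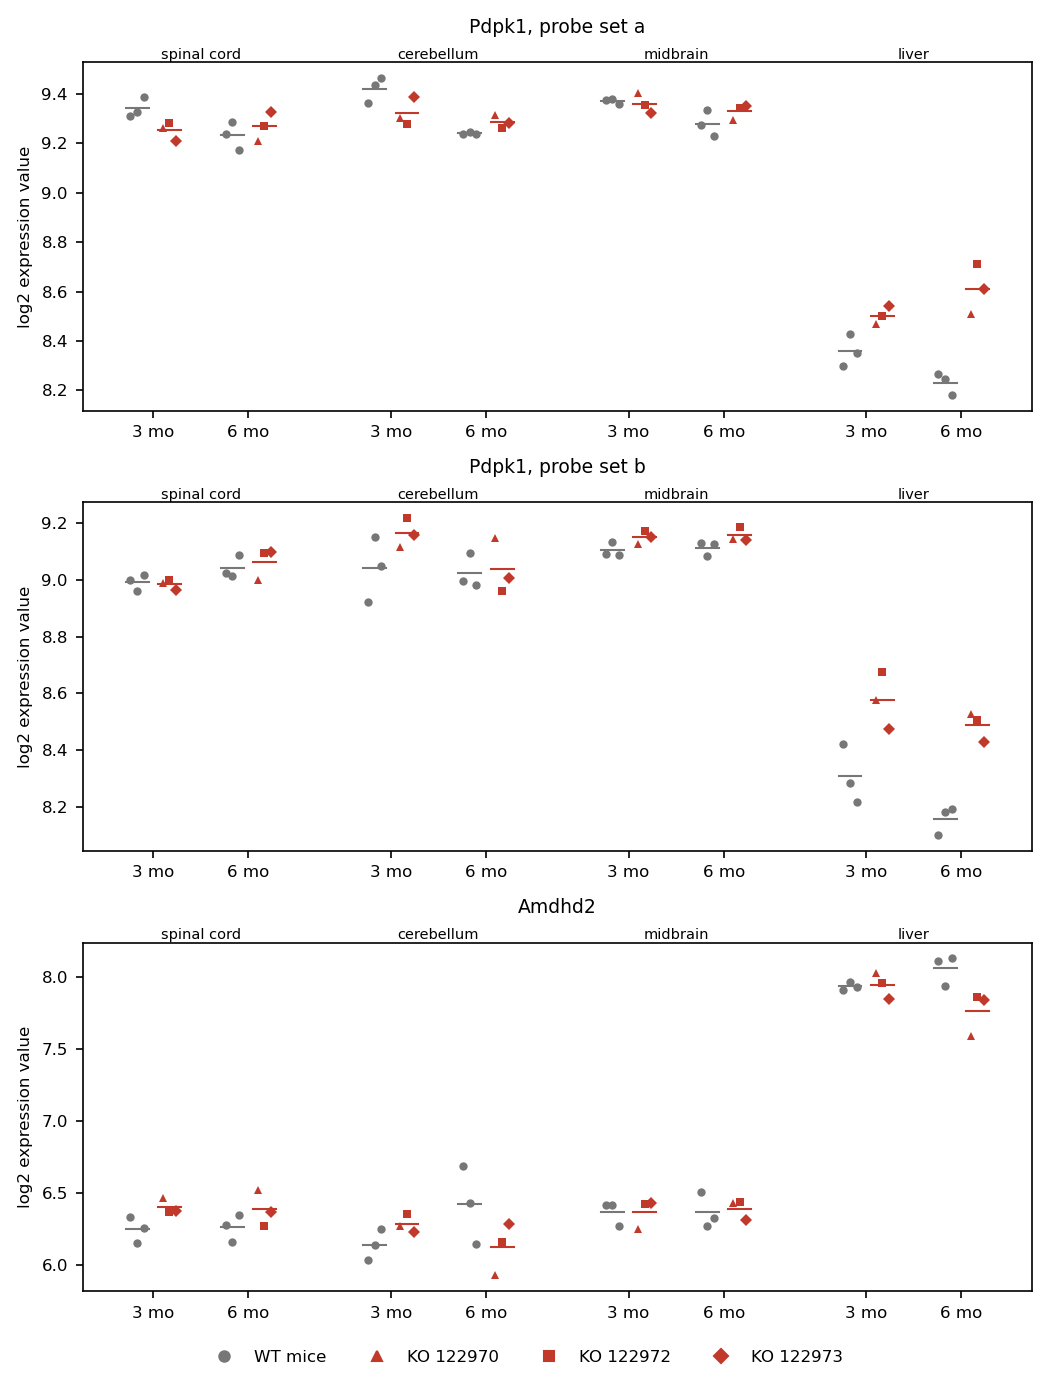
Log2 expression of Pdpk1 (probe sets a and b) and Amdhd2 in each array, by tissue and age; each point is 1 mouse and the bar is the group mean of 3 mice. The Pdpk1 livers of the KO mice lie above those of the WT mice at both ages, while the nervous tissues of Pdpk1 and the groups of Amdhd2 overlap in most comparisons.

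The 8 comparisons of KO and WT mice were made by limma across all 45037 probe sets, and a call needed a p below 0.05 after Benjamini-Hochberg adjustment. Of the 9 member probe sets, 2 were called in spinal cord at 3 months, where 0.311% of all probe sets were, and 1 at 6 months against 0.162% of all. In cerebellum 4 were called at 3 months against 0.548% of all and 1 at 6 months against 0.182%. In midbrain 1 was called at each age, against 0.242% of all at 3 months and 0.142% at 6 months. In liver, where 9.44% of all probe sets were called at 3 months and 11.5% at 6 months, 4 and 7 members were called. Each of these 21 calls was for a higher value in the KO mice: 8 belong to Tedc2, 6 to Tbc1d24 over 3 probe sets, 4 to Ccnf over 2 and 3, all in liver, to Pdpk1 over 2. Since the members were chosen by these comparisons, nothing is read from the shares or from the number of calls kept below. With each of the 12 mice left out in turn, 12 of the 21 calls were kept every time and 9 were lost without at least 1 mouse. The Tedc2 call in spinal cord at 6 months was lost without any WT mouse of that age or without KO 122970 or 122972 (0.49 to 0.68), and that in midbrain without WT mouse 1 or 2 or KO 122970 (0.49 to 0.61). For Tbc1d24 a, the call in liver at 6 months was lost in 10 of the 12 fits (0.29 to 0.45), including those without WT mouse 2 or 3 or any KO mouse of 3 months, which leave the difference itself as it was. It held only without WT mouse 1 of 3 months or KO 122973 of 6 months. The Tbc1d24 a calls at 3 months were lost in spinal cord without WT mouse 2 or 3 (0.72 and 0.71) and in liver without WT mouse 3 (0.52). Those of Tbc1d24 c were lost in cerebellum at 3 months without WT mouse 1 or 2 or KO 122970 or 122973 (0.71 to 0.84) and in liver at 6 months without WT mouse 1 or 2 or KO 122970 or 122972 (0.47 to 0.59). The Ccnf a call in cerebellum at 3 months was lost without WT mouse 1 or 2 or KO 122970 (0.58 to 0.69), and the Pdpk1 b call in liver at 3 months without WT mouse 3 or KO 122972 (both 0.22).

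The nearest other genes of the array, 10 before Pdpk1, Ntn3 between Tbc1d24 and Tedc2 and 10 after Ccnf, had 29 probe sets, of which 16 were dim. In the nervous tissues their median absolute difference was 0.0727, and 0 to 4 of the 29 per comparison had an unadjusted p under 0.05. Of 174 tests there, limma called 1, where 0.142% to 0.548% of all probe sets were called per comparison. That one was Rab26, a vesicle GTPase named after its values were seen, at the far end of the row and lower by 0.66 in cerebellum at 3 months (adjusted p = 0.0243). The nearest genes showed no call in any comparison of the nervous tissues. Ntn3, which encodes a netrin and lies inside the row, was dim and differed by -0.15 to 0.25 over the 8 comparisons. Kctd5, next to Pdpk1, differed by -0.02 to 0.23, and the brighter probe sets of Abca3, a lipid transporter next to Ccnf, by -0.15 to 0.25 in the nervous tissues. A dim probe set of Abca3 differed by -0.42 to 0.28 there and was called lower in liver at 6 months (-0.59), where the brighter ones were not called. In liver, 4 of the 29 flanking probe sets were called at 3 months, where 9.44% of all were, and 7 at 6 months against 11.5% of all. Of these calls 6 were higher and 5 lower, with a median absolute difference of 0.130 over the 58 tests. Among them, Prss27, a serine protease with a dim probe set (mean level 2.74), differed by 0.63 at 3 months and by -0.60 at 6 months. Caskin1, a synaptic scaffold protein, was lower at both ages by its brighter probe set (-0.55 and -0.47). Its dim probe set differed by -0.24 to 0.14 over the 8 comparisons and was not called. By the brightest probe set of each gene in the nervous tissues, Tbc1d24, Tedc2 and Ccnf differed by 0.44 to 1.04, while Amdhd2 and Pdpk1 on one side, Abca3 on the other and Ntn3 in between ranged from -0.30 to 0.25.

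**Figure D3:**
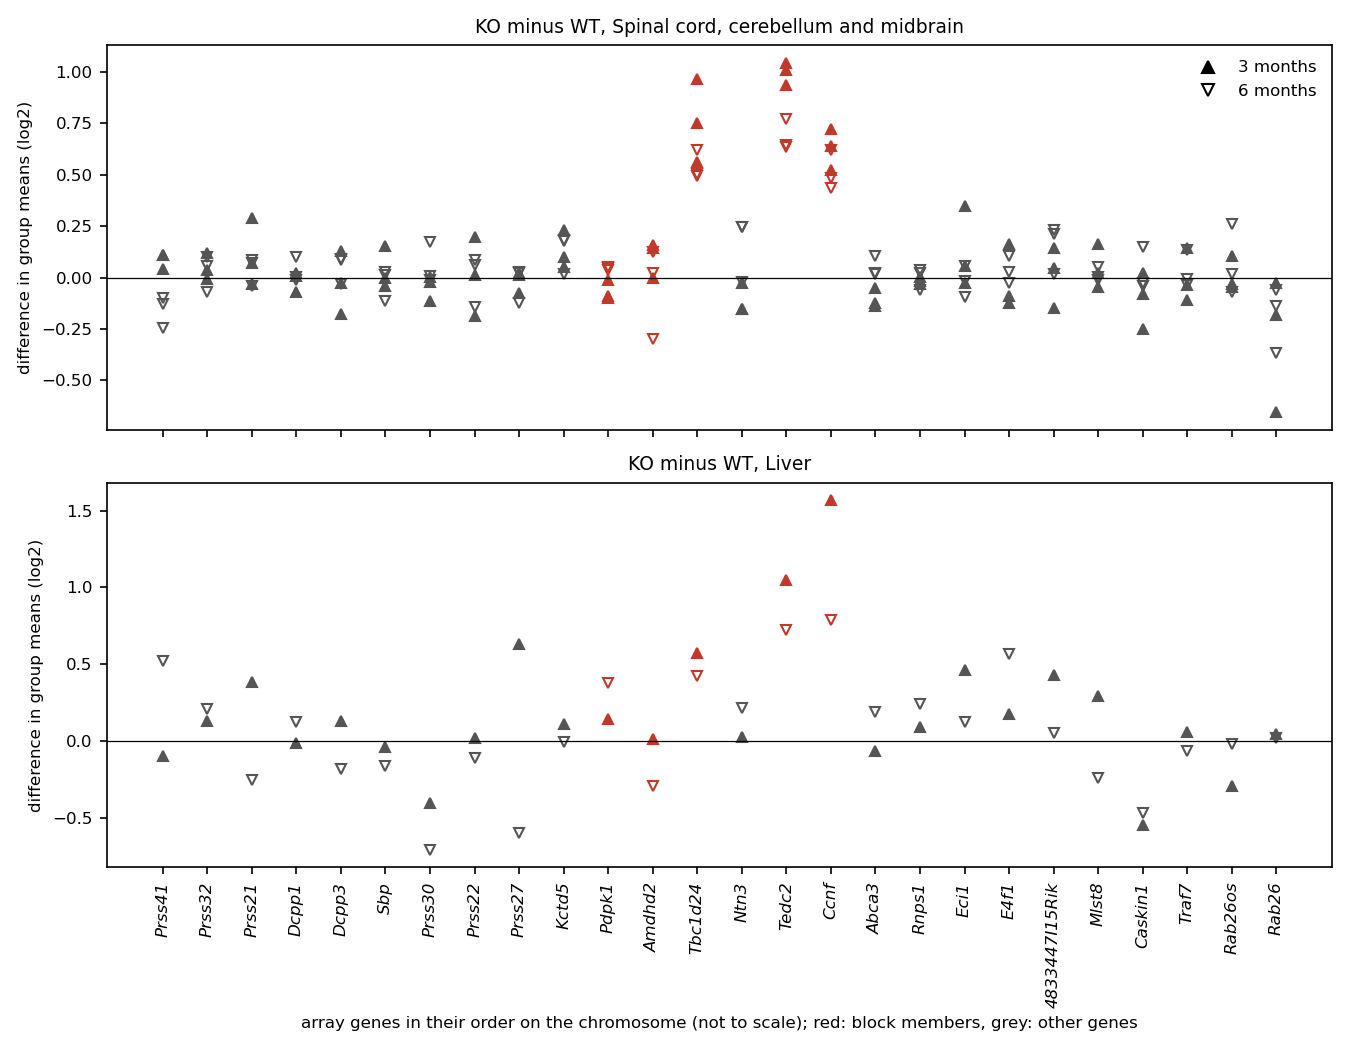
KO minus WT difference in group means (log2) for the probe set of highest mean level of each gene, with the array genes of this stretch of chromosome 17 in genomic order on the x axis. Each point is 1 comparison, in the nervous tissues (top) or liver (bottom), at 3 or 6 months. In the nervous tissues Tbc1d24, Tedc2 and Ccnf lie above 0 in every comparison, up to 1.04, while no flanking gene lies farther from 0 than 0.66.

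The genotype difference was also compared between liver and the nervous tissues, as a contrast in the same model. This contrast, the mean difference in liver minus the mean in the nervous tissues, is built from the differences that were known when the members were chosen, so that its values are a description and nothing is read from its calls. Of all probe sets 9.12% were called in it, and of the 9 member probe sets 4. The difference of Ccnf was larger in liver by 0.61 for probe set a and by 0.51 for b (SE 0.12 each). That of Pdpk1 was larger in liver by 0.27 for probe set a (SE 0.047) and by 0.26 for b (SE 0.053). These were the 4 calls. For Tedc2 the same contrast gave 0.05 (SE 0.11) and for Tbc1d24 a -0.15 (SE 0.12), neither called, so that their differences in liver and nervous tissue were not told apart. The model uses 1 spread for all tissues, and within groups Pdpk1 a had SDs of 0.00523 to 0.0579 in the nervous tissues and 0.0383 to 0.100 in liver. Among the nervous tissues, 0 members were called by limma for cerebellum against spinal cord (0.0533% of all probe sets, 1 member at an unadjusted p under 0.05), midbrain against spinal cord (0.0111%, 0 members unadjusted) or midbrain against cerebellum (0.0289%, 0 members unadjusted).

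The difference between KO and WT mice was next compared between the ages within each tissue, again as a description, since it is built from the same differences. In liver, where 7.14% of all probe sets were called, 1 of 9 members was: the difference of Ccnf a was smaller at 6 months, with a contrast of -0.78 (SE 0.21). This call was lost without WT mouse 1 of 3 months (-0.69) and when each tissue was fitted alone. In spinal cord 0 members were called by limma (0.0533% of all, 0 unadjusted), in cerebellum 0 (0.0577%, 1 unadjusted) and in midbrain 0 (0.0444%, 0 unadjusted). The Tedc2 difference was smaller at 6 months in all 4 tissues, with contrasts of -0.36 to -0.27 and no call in any of them. In liver the contrast passed with single mice left out for Tbc1d24 c, with 0.89 without WT mouse 3 of 3 months, 0.92 without KO 122973 of 3 months and 1.02 without KO 122973 of 6 months, and for Pdpk1 a, with 0.28 without KO 122970 of 6 months.

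The 3- and 6-month mice of a genotype were taken as different animals, so that age and cohort cannot be told apart between them. Among the WT mice, 2 member probe sets differed between the ages in liver, where 10.7% of all were called: Ccnf a was 0.55 higher at 6 months (adjusted p = 0.0146) and the dim Tbc1d24 c lower (-0.57, adjusted p = 0.0327). The Ccnf call was lost without WT mouse 1 of 3 months (0.46) or WT mouse 3 of 6 months (0.51), and that of Tbc1d24 c without WT mouse 1 or 2 of either age (-0.56 to -0.43). In the WT nervous tissues limma called 0 members in spinal cord (0.242% of all, 0 unadjusted), 0 in cerebellum (1.13%, 2 unadjusted) and 0 in midbrain (0.258%, 0 unadjusted). Among the KO mice, 1 member was called in liver against 10.9% of all probe sets, Tbc1d24 b, which was lower at 6 months (-0.86, adjusted p = 0.0162), a call lost without KO 122970 of 3 months (-0.78) or KO 122973 of 6 months (-0.50). In the KO nervous tissues limma called 0 members in spinal cord (0.091% of all, 2 unadjusted), 0 in cerebellum (0.0844%, 2 unadjusted) and 0 in midbrain (0.00444%, 1 unadjusted). Tedc2 was among the unadjusted ones in each, with 6-month minus 3-month differences of -0.36 in midbrain, -0.35 in spinal cord and -0.31 in cerebellum.

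The KO mice of 6 months differed from each other in the same order for Tedc2 and for Tbc1d24 a and b, by their averages. Averaged over the 3 nervous tissues, Tedc2 exceeded the WT mean by 0.98 in mouse 122970, 0.59 in 122972 and 0.47 in 122973. Tbc1d24 exceeded it by 0.86, 0.39 and 0.37 in the same mice for probe set a, and by 0.95, 0.51 and 0.39 for b. Mouse 122970 was highest in 3 of 3 nervous tissues for Tedc2 and for all 3 probe sets of Tbc1d24, and in 2 of 3 for Ccnf a, which exceeded the WT mean by 0.71, 0.31 and 0.52. For Tedc2 and Tbc1d24 a no mouse stood apart at 3 months, with 0.96, 1.04 and 0.99 for Tedc2 and 0.78, 0.75 and 0.74 for Tbc1d24 a. After subtraction of each group's mean, Tedc2 and Tbc1d24 a correlated at r = 0.66 over the 24 KO arrays and at 0.30 over the 24 WT arrays. Ccnf a and Tedc2 correlated at 0.46 and 0.26, and Ccnf and Tbc1d24 at 0.40 and -0.12. These coefficients describe the arrays, in which 4 tissues share a mouse, and were not tested.

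**Figure D4:**
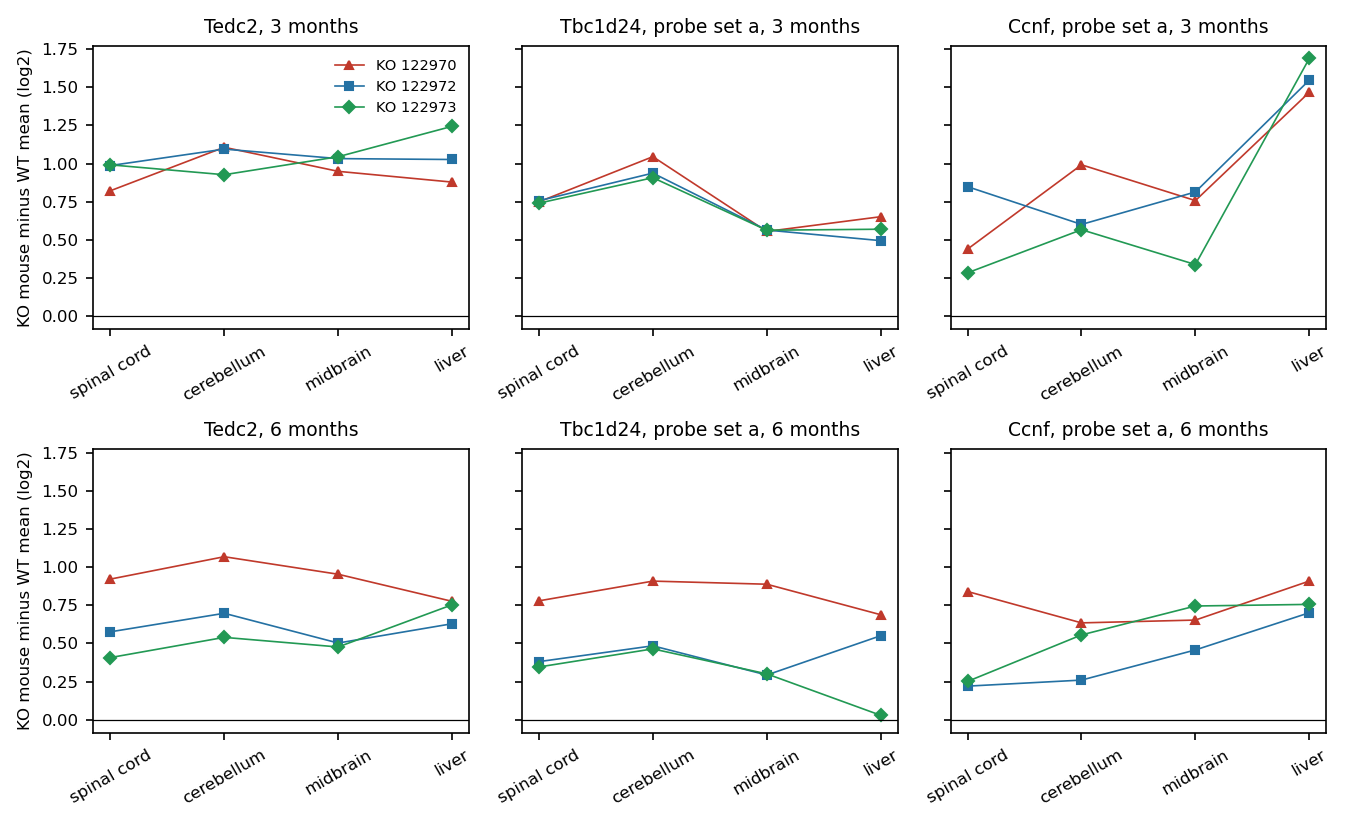
Log2 value of each KO mouse minus the WT mean of the same tissue and age, for Tedc2, Tbc1d24 (probe set a) and Ccnf (probe set a) at 3 months (top) and 6 months (bottom). Each symbol is a KO mouse, and a line joins the tissues of 1 mouse. At 6 months mouse 122970 lies above the other KO mice in all 3 nervous tissues for Tedc2 (mean 0.98 against 0.59 and 0.47) and Tbc1d24 (0.86 against 0.39 and 0.37).

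The likeness of other probe sets to each gene was measured by Pearson's r over the 48 arrays after subtraction of each tissue's mean, a measure that holds the genotype difference and that was not tested. Among the members themselves, r was 0.90 for Tedc2 and Tbc1d24 a, 0.87 for Tedc2 and Ccnf a and 0.75 for Ccnf a and Tbc1d24 a, and it was 0.86 for Tbc1d24 a and b. The members were then left out, and the 5 closest probe sets of other genes are given. Around Ccnf a these were 3 probe sets of Tia1 outside exon 4 (r = 0.85, 0.83 and 0.79), Exoc6b (0.74), an exocyst subunit gene on the Tia1 chromosome 6, and Wbp1l (0.73) on chromosome 19. Around Tedc2 they were the same 3 Tia1 probe sets (0.86, 0.86 and 0.81), Angptl4 (0.84), an inhibitor of lipoprotein lipase, and Cdkn1a (0.81), the cyclin-dependent kinase inhibitor p21, both on chromosome 17. Around Tbc1d24 a they were Dcp1b (0.79), an mRNA decapping cofactor on chromosome 6, both probe sets of Cdkn1a (0.78 and 0.77), Tia1 (0.76) and Exoc6b (0.75). Of these genes, Cdkn1a had the mouse order of Tedc2 only in part: over the 6-month nervous tissues 1 of its probe sets exceeded the WT mean by 1.91 in mouse 122970, 0.89 in 122972 and 1.26 in 122973. Angptl4 exceeded it by 1.32, 0.99 and 1.13, and Wbp1l by 0.35, 0.15 and 0.15. Mouse 122970 was thus the highest for these genes too, whereas Dcp1b (0.87, 0.85 and 0.78), Exoc6b (0.34, 0.30 and 0.36) and 1 of the Tia1 probe sets (0.81, 0.81 and 0.78) were nearly level over the 3 mice.

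In the WT mice the members had their own tissue orders. For Tedc2 the lowest, median and highest of 6 WT mice were 9.85, 9.99 and 10.43 in liver, 6.51, 6.60 and 6.78 in cerebellum, 5.73, 5.83 and 6.00 in spinal cord and 5.65, 5.78 and 6.03 in midbrain. Liver and cerebellum stood apart from each other and the rest, and spinal cord and midbrain overlapped. Ccnf a followed the same order, with 6.44, 6.94 and 7.24 in liver and 3.30, 3.42 and 3.71 in cerebellum. It had 2.79, 3.00 and 3.38 in spinal cord and 2.80, 2.97 and 3.21 in midbrain. Here cerebellum overlapped spinal cord and spinal cord overlapped midbrain. These nervous levels all lay below the median probe set (log2 4.38), which limits their order. Tbc1d24 a had another order, with midbrain highest and liver lowest, and with 7.89, 8.18 and 8.25 in midbrain, 7.49, 7.84 and 7.87 in cerebellum, 7.45, 7.57 and 7.70 in spinal cord and 7.22, 7.32 and 7.67 in liver. Midbrain was above cerebellum without overlap, and the lower neighbours overlapped. Amdhd2 was highest in liver with a median of 7.95 against 6.20 to 6.37 in the nervous tissues, and Pdpk1 lowest there, with a median of 8.28 for probe set a.

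The known partners of the members were counted gene by gene, each by its brightest probe set. In the nervous comparisons 0.142% to 0.548% of all probe sets were called, and nothing is read from 0 calls in lists this short. Among 15 genes of the delta- and epsilon-tubulin complex and of centriole assembly, partners of Tedc2, limma called 0 in the nervous tissues (1 to 3 at an unadjusted p under 0.05 per comparison), and their median differences ran from -0.07 to 0.11, where the median of all probe sets lay between -0.01 and 0.02. The largest mean nervous differences of this list were those of Cep192 (-0.16), a centriole assembly scaffold, and Tubd1 (0.14), delta-tubulin. Tedc1, the direct partner of Tedc2, was dim and differed by -0.14 to 0.08 in the nervous tissues. In liver, where 9.44% of all probe sets were called at 3 months and 11.5% at 6 months, 2 and 3 of the 15 genes were called. Of these calls 4 were higher, of Poc5 (0.69 and 0.73 at 3 and 6 months), Plk4 (0.72 at 6 months), the kinase that starts centriole duplication, and Sass6 (0.66 at 6 months), a cartwheel protein, and 1 lower, of Tube1 (-0.52 at 3 months), epsilon-tubulin.

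Among 15 genes of the SCF ligase and of cyclin F substrates, limma called 0 in the nervous tissues (0 to 2 unadjusted). There 0.142% to 0.548% of all probe sets were called per comparison. The nervous medians of this list ran from -0.02 to 0.02, with Nusap1 (0.13) and Fzr1 (-0.08) as the largest mean differences. In liver 2 of the 15 were called at 3 months against 9.44% of all probe sets and 1 at 6 months against 11.5%. There Nusap1, a spindle protein, was 1.27 higher at 3 months and Rrm2, a ribonucleotide reductase subunit, 0.87 higher at 6 months, while Cdc6, a replication licensing factor, was lower at 3 months (-0.51). Genes of dividing cells were counted beside the liver values of Ccnf, since cyclin F is itself a gene of the cell cycle. Of 14 such genes, 7 rose in the KO livers at 3 months, where 9.44% of all probe sets were called, with a list median of 0.95 against 0.00 for all probe sets, among them Ube2c (1.84), Mki67 (1.34), Cenpf (1.28), Ccnb2 (1.23) and Top2a (1.23). At 6 months, against 11.5% of all, 2 rose, with a median of 0.42, Cdk1 (1.34) and Bub1 (0.36). Their log2 summed level ranged from 7.03 to 8.24 in the WT livers and from 7.37 to 9.68 in the KO livers, and its part in the liver difference of Ccnf was not tested. Of the 14 genes, 12 had a mean below the median probe set in the WT livers and 9 in the KO livers, which limits their precision. In the nervous tissues 1 of these genes was called, Mki67 in spinal cord at 3 months, where 0.311% of all probe sets were called, 5 of the 14 genes had an unadjusted p under 0.05 and the list median was 0.44. In the other nervous comparisons 0 were called by limma (0 to 1 unadjusted), with medians from -0.01 to 0.11. In each nervous tissue 13 or 14 of the 14 genes had a mean below the median probe set. The part of these genes in the spinal cord difference of Ccnf was not tested.

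Of 8 genes for TLDc proteins, other TBC domain proteins and ARF6, related to Tbc1d24, limma called 0 in the nervous tissues (0 to 1 unadjusted). For this and the following lists, 0.142% to 0.548% of all probe sets were called per nervous comparison. In the nervous tissues Meak7 (0.15) and the TBC domain gene Tbc1d10b (-0.10) had the largest mean differences of the 8. In liver 1 of the 8 was called at each age (9.44% and 11.5% of all probe sets). Both were higher, Ncoa7 (0.43 at 3 months) and Arf6 (0.25 at 6 months). Of 20 subunits of the V-ATPase to which Atp6v0c belongs, 0 were called in the nervous tissues by limma (0 to 2 unadjusted), with Atp6v0e (0.16) and Tcirg1 (-0.08) as the largest, and 3 of the 20 were called in liver at 3 months and 2 at 6 months (9.44% and 11.5% of all), 3 calls being higher and 2 lower. Of 13 hexosamine and amino sugar enzymes around Amdhd2, limma called 0 in the nervous tissues (0 to 2 unadjusted), where Nagk (0.11) and Gnpnat1 (-0.09) were the largest. In liver 4 of these 13 enzymes were called at 3 months against 9.44% of all probe sets and 5 at 6 months against 11.5%, with 7 calls higher and 2 lower. Pgm3 rose by 0.49 and 0.47 and Nanp by 0.32 and 0.40 at 3 and 6 months, while Gnpnat1, which makes the substrate of Amdhd2, was lower at both ages (-0.33 and -0.41).

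Of 12 AGC kinases that PDK1 activates, 6 calls were made in the nervous tissues, all higher and all of 2 genes, where 0.142% to 0.548% of all probe sets were called per comparison. Sgk1, a kinase induced by glucocorticoids, was called in 3 of 6 nervous comparisons with differences of 0.09 to 1.60 and a mean of 0.73. Sgk3 was called in 3 of 6 with 0.34 to 0.98 and a mean of 0.69. In liver 3 of the 12 were called at 3 months against 9.44% of all and 1 at 6 months against 11.5%. There Sgk2 (0.66) and Prkcz (0.34) were higher and Akt1 (-0.43) lower at 3 months, and Prkce lower at 6 months (-0.36). Akt1 and the other kinases of the list had no call in the nervous tissues, where the Pdpk1 probe sets themselves differed by at most 0.12.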

How the data were processed

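Expression was measured on 48 Affymetrix mouse arrays, 3 mice in each of 16 groups. The authors deposited log2 expression values from Robust Multichip Average (RMA), run in R 2.14.0, which subtracts background, equalizes the distributions of the arrays and summarizes each probe set. Whether all tissues were normalized together is not given in the sources used here, which bears on levels compared between tissues. Of 45141 probe sets, 104 controls were left out, and 45037 were tested. The platform annotation gave 1 gene symbol to 28898, several to 551 and none to 15588, and the order of genes came from RefSeq.

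With R 4.3.3, limma 3.58.1 and statmod 1.5.0, the 16 group means were fitted over all arrays with a moderated spread (4.97 prior and 32 residual degrees of freedom), and 24 contrasts were tested. A call is a p under 0.05 adjusted by Benjamini-Hochberg over all probe sets of that contrast. The steps were tested on simulated data with independent noise in each array. Effects shared by the tissues of 1 mouse were not simulated. Precision is limited by the number of arrays.

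The members and the lists were chosen with earlier results of these data known. Probe sets of members called in at least 4 of the 8 KO and WT comparisons, or the highest one of members with fewer, are given in full. Flanking genes are named if called in at least 2 of these comparisons or nearest to a member. Listed genes are named if called in at least 2 of 6 nervous comparisons, otherwise the 2 with the largest mean difference, and genes named for liver calls were chosen after their values were seen. Alternatives were the nested F decisions, separate fits by tissue and age, a filter on dim probe sets, renewed quantile normalization, a trended and robust prior, a threshold of 0.01, a minimum change of 1.2-fold, the mouse as a block, and each mouse left out. Samples of 1 mouse had a median correlation of deviations of 0.0511 over 72 pairs across tissues, against -0.0219 over 144 pairs of different mice. P-values measure the spread between these mice only.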

Additional observations from a re-analysis of the deposited data

Results flagged for a closer look

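The KO minus WT difference of Ccnf (probe set a) in liver was smaller at 6 than at 3 months by a contrast of -0.78 in limma, and the cause was not tested. Prss27, a flanking serine protease gene with a dim probe set, had an age contrast of -1.23 in liver, and its cause was not tested.

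The liver difference exceeded the mean nervous difference by 0.27 and 0.26 for both probe sets of Pdpk1 and by 0.61 and 0.51 for those of Ccnf. It fell below the mean nervous difference for the brighter probe set of Caskin1, a flanking gene, with a contrast of -0.47. For Pdpk1 a at 3 months, the 3 KO spinal cords all lay below the WT ones, with a difference of -0.0913, while the 3 KO livers all lay above the WT ones (0.14), and the difference between these was not tested.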

How the results depend on the processing

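In place of the 21 KO and WT calls of the members, 40 were made by the nested F method (share of all probe sets not given here). With a mouse left out 17 to 25 were made. With each tissue and age fitted alone, which leaves fewer arrays to estimate the spread, 10 were made, not all among the 21. Lost there were Tedc2 at 6 months in every tissue and at 3 months in liver (adjusted p in limma 0.0564 to 0.289). Also lost were Ccnf a in cerebellum at 3 and liver at 6 months, and the liver calls of Ccnf b, Tbc1d24 and Pdpk1. At 0.01 the nervous calls of Ccnf a and Tbc1d24 c were lost. So were the 6-month calls of Tedc2 in spinal cord and midbrain and of Tbc1d24 in liver. For the 12 calls of the flanking genes, the counts were 3 at an adjusted p under 0.01, 6 by nested F, 1 with each tissue alone, 1 with each tissue and age alone, 7 after the filter on dim probe sets, which removes 16 of the 29, and 6 (without KO 122972 of 6 months) to 10 (without WT 1 of 3 months) with a mouse left out. The single age-difference call of the members became 0 at 0.01 and with each tissue alone and 2 with the filter, with renewed quantile normalization and with the trended prior, where Pdpk1 a in liver was added (0.23 to 0.27), and 0 to 2 with a mouse left out, 0 without WT 1 of 3 months. The 2 WT age calls and the 1 KO age call became 0 at 0.01 and with each tissue alone and 0 to 2 with a mouse left out, 0 without WT 1 of 3 months for the former and without KO 122970 of 3 months for the latter. The 34 calls of the partner lists became 20 at 0.01, 8 with each tissue alone, 5 with each tissue and age alone, 60 with all probe sets of each gene in place of 1, and 24 to 37 with a mouse left out. The 4 liver against nervous calls became 3 with a minimum change of 1.2-fold, where that of Pdpk1 b (0.26) was lost, and 3 with the filter, which removes the dim Ccnf b, and stayed 4 in the other alternatives that fit this contrast. With the mouse as a replicate block the counts were 23, 12, 1, 4, 2, 1 and 35 in the order members, flanks, age difference, tissue difference, WT age, KO age and partners, and no called value changed direction under any alternative. Of the KO minus WT differences of the members, 9 that were not called, each at most 0.12 in size, changed sign under at least 1 alternative, such as Pdpk1 b in cerebellum at 6 months (0.02, and -0.04 without KO 122970).

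With each tissue fitted alone, the liver calls of Pdpk1, Tbc1d24 a and c and Ccnf b and the 6-month spinal cord and midbrain calls of Tedc2 were lost, and the cause was not tested. Leaving out WT 3 months mouse 1 raised the 3-month liver difference of Tbc1d24 b to 1.03. Without KO 3 months mouse 122973 the 3-month liver difference of Ccnf b was 0.22. The liver age call count of the KO mice rose with Tbc1d24 a (-0.42) without KO 122970 of 6 months and with Ccnf b without WT 1 of 3 months (0.42) or KO 122973 of 3 months (0.63). The blocked fits with mouse numbers shared between ages gave 1, 2 and 1 calls for the age difference, WT age and KO age. The dim nervous levels of Ccnf limit what its nervous comparisons can show.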
